A study of Mus musculus with 13 samples.

Results

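GABA-A receptors are chloride channels that open when they bind GABA, and 8 genes for their subunits were described here: Gabra6, Gabrd, Gabrb2, Gabra2, Gabra3, Gabra5, Gabra4 and Gabrb1. They were chosen by symbol, as every probe set that the platform annotation gives to 1 of these genes, which came to 23 probe sets of 45101 on the array and 8 genes of 18193 with a symbol. The 13 untreated samples were read on 1 array each. Ptch1(+/-) mice gave 6 primary medulloblastomas, cancers that arise in the hindbrain, called tumours 1 to 6. Ptch1 is the receptor that restrains the hedgehog pathway. The normal tissue was wildtype: granule neuron precursors of the cerebellum at P7, a week after birth (GNPC, n = 3), and embryonic dorsal brainstem at E16.5 (DBS, n = 4). The labels do not say whether GNPC were purified, nor the age of the tumour mice, and age goes with tissue in the normal samples.

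Each GABA-A receptor is built of 5 subunits, most often with alpha, beta and gamma or delta types, and the alpha type sets much of its pharmacology and place in the cell. Neurons change subunits as they mature. In the brain of the embryo the alpha2, alpha3 and alpha5 subunits are prominent, and granule neurons of the cerebellum switch on alpha6 and delta after they stop dividing and settle in the inner granule layer. There alpha6 and delta, with a beta subunit such as beta2, form receptors outside the synapse that carry a steady inhibitory current.

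All 8 subunit genes were lower in the tumours than in GNPC. Against DBS the tumours were lower for 6 genes and higher for Gabra6 and Gabrd, the pair of the mature granule cell, of which the Gabrd call was lost under 13 of 23 other settings. GNPC in turn had more Gabra6 and Gabrd than DBS, less Gabra3, Gabra5 and Gabrb1, and differences that did not pass for Gabrb2, Gabra2 and Gabra4. A gene was called at a limma adjusted p under 0.05 (Benjamini-Hochberg over 12270 genes) with a difference of at least 1 on the scale of log2(intensity + 18.2), which understates the change of dim genes. Over all genes, 20.8% were called between tumours and GNPC (14.2% lower in tumours), 36.3% between tumours and DBS (20.9% lower and 15.4% higher in tumours) and 18.4% between GNPC and DBS (8.73% higher and 9.67% lower in GNPC). The values of tumours and GNPC did not overlap for any of the 8 members, as for 44.9% of all genes, and those of tumours and DBS did not overlap for 6 of 8, against 56.1% of all genes. GNPC and DBS did not overlap for 7 of 8, against 55.9%. In bulk samples, fewer cells that use a gene and less RNA per cell cannot be told apart.

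**Figure D1:**
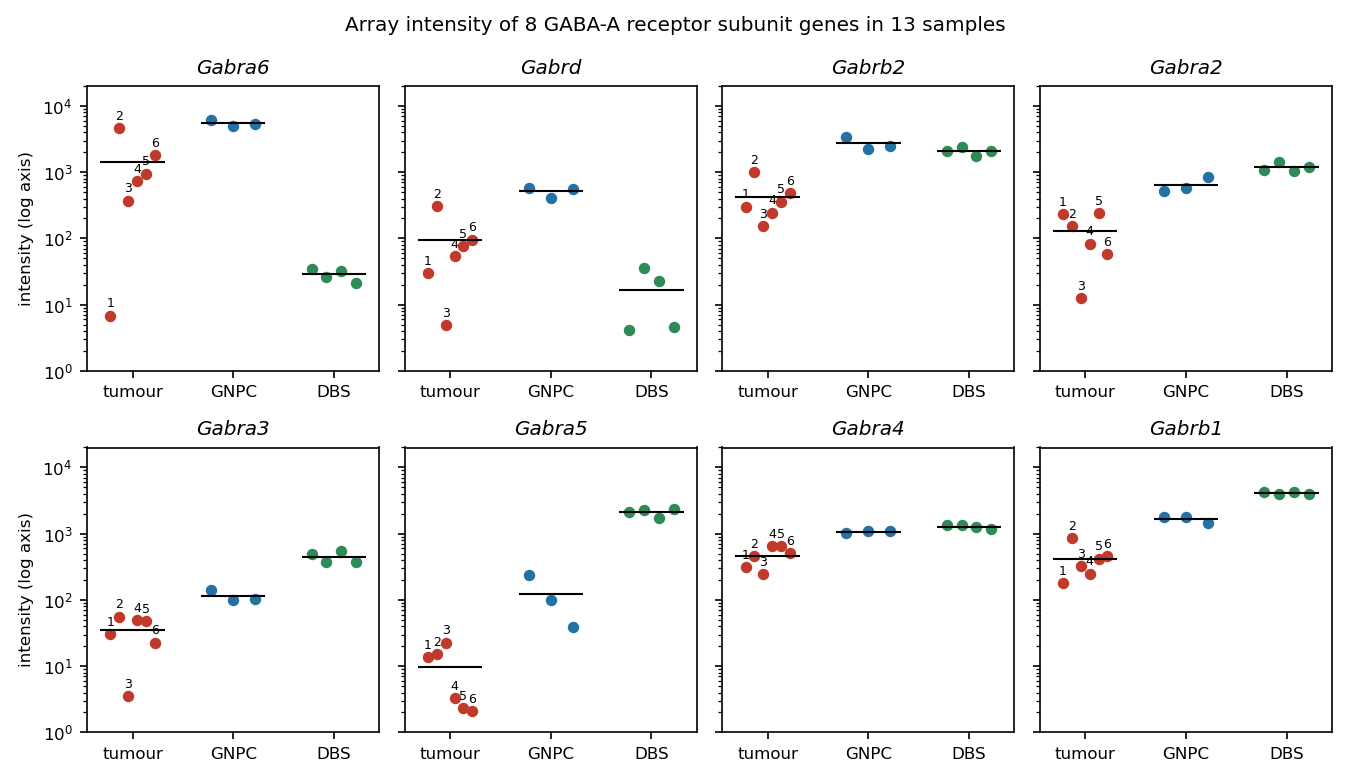
Intensity of each subunit gene (log axis) in 6 tumours (red, numbered), 3 GNPC samples (blue) and 4 DBS samples (green), with a bar at each group's mean. Every tumour lies below every GNPC sample in all 8 panels, and Gabra6 runs from 6.8 to 4620.9 among tumours.

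All arrays had been scaled alike, with medians from 91.3 to 117.5. Precision is limited by how few arrays each group has. The SEs and p-values rest on 1 estimate of the spread between samples of a group for each gene, pooled over the 3 groups. Those of GNPC against DBS thus include the spread among tumours. For Gabra6 the log2 SD was 2.58 in tumours, 0.14 in GNPC and 0.19 in DBS. Defining markers set the groups apart. Hoxa5, a patterning gene of the posterior hindbrain, was at least 5534.1 in DBS and at most 17.1 elsewhere. Atoh1, the transcription factor of granule neuron precursors, was at least 6383.3 in tumours, 825.7 to 1251.8 in GNPC and at most 166.5 in DBS. These markers do not show how pure the GNPC samples were. GNPC also held RNA of other cerebellar cells, given below beside the results that move with it. In GNPC the Purkinje cell marker Calb1 was 13398.9 to 16138.8 and the oligodendrocyte marker Mbp 12743 to 20462.9. Other oligodendrocyte markers were dimmer there, such as Mog (81.7 to 357.2) and Sox10 (208.9 to 365.7). Intensities of different probe sets do not rank amounts of RNA or of cells. The log2 ratio of 3' to 5' signal of control transcripts, a sign of RNA quality, lay between 1.33 and 1.59 in tumours, 1.11 and 1.19 in GNPC, and 1.23 and 2.43 in DBS, the highest being DBS 2. It moved with the groups, and its part in the results was not tested.

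Gabra6 encodes alpha6, the subunit that in the cerebellum marks the differentiated granule neuron. Its intensity in tumours 1 to 6 was 6.8, 4620.9, 369.7, 724.3, 952.4 and 1810.9. In GNPC 1 to 3 it was 6141.2, 5052.7 and 5356.8, and in DBS 1 to 4 it was 34.7, 26.3, 32.3 and 21.3. GNPC were uniformly high and DBS uniformly near background, while the tumours spread over nearly the whole distance, tumour 2 approaching the GNPC level and tumour 1 falling below every DBS sample. The log2 difference of the tumours from GNPC was -3.14 ± 1.08 (SE), 8.83-fold lower (limma adjusted p = 0.0257), with 6 of 6 tumours below every GNPC sample. They were 3.75 ± 0.99 above DBS, 13.4-fold (adjusted p = 0.00337), higher in 5 of 6 tumours. GNPC exceeded DBS by 6.89 ± 1.17, 118.5-fold (adjusted p = 0.000286). This first call did not hold when GNPC 1, 2 or 3 was left out in turn (adjusted p = 0.0767, 0.0621 and 0.0642) and with only these 2 groups in the fit (0.058). Without tumour 1 the tumours were 4.64-fold below GNPC and 25.5-fold above DBS (adjusted p = 0.00489 and 2.01e-06). The 2nd probe set of Gabra6 had a lower signal and the same directions, with log2 differences of -3.08, 1.75 and 4.83 in the same order of comparisons.

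The promoter of Gabra6 is shown because no other member had so wide a range, beside those of Gabra5, which had the opposite pattern in the normal tissues, and Gabra2. Each is the 250 bases before the RefSeq start on GRCm38.p6, all on the minus strand: Gabra6 at chr11:42321073-42321322, Gabra5 at chr7:57510060-57510309 and Gabra2 at chr5:71095850-71096099. Capitals mark the short core motif of NFI factors, searched as TTGGC on both strands (GCCAA where it lies on the other strand), since NFI factors are known regulators of Gabra6 in granule neurons.
Gabra6: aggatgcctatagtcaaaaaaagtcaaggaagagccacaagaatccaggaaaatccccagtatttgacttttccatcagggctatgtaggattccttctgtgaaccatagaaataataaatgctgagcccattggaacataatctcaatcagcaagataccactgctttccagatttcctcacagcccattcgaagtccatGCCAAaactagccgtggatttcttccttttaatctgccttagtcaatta
Gabra5: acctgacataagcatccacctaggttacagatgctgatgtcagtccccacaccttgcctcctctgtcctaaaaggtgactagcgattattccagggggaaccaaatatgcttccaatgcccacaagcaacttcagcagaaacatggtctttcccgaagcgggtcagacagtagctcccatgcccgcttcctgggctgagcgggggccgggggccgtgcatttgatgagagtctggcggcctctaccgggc
Gabra2: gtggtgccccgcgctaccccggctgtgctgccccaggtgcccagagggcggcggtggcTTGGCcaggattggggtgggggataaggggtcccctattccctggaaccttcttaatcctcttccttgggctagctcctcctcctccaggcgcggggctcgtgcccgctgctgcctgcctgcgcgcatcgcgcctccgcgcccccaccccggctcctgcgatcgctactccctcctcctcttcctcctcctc
Gabra6 held 1 core motif, which begins 49 bases before the start, Gabra2 held 1 and Gabra5 none. The core is common, present in 41.5% of the 32851 promoters in the table and at 5 of the 11 listed starts of 7 members. The full palindromic NFI site was at none of these 11 starts (12 promoters of the table hold it). CpG dinucleotides numbered 2 in the Gabra6 promoter, 9 in that of Gabra5 and 18 in that of Gabra2, against a median of 6 over all promoters. The NFI factors themselves, Nfia, Nfib and Nfix, had log2 differences between tumours and GNPC of 0.31, 0.19 and -0.15 that were not called, and were 2.09, 1.77 and 1.85 higher in tumours than in DBS, each called.

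Gabrd encodes delta, the subunit that takes the place of gamma in receptors outside the synapse. Among the tumours its lowest value was 4.9 (tumour 3), the median 64.8 and the highest 306.4 (tumour 2). GNPC 1 to 3 had 587.1, 404.5 and 561, and DBS 1 to 4 had 4.1, 35.4, 23 and 4.6. As for Gabra6, GNPC were highest and DBS at background, and the tumour values overlapped those of DBS. In tumours it was 6.55-fold lower than in GNPC (-2.71 ± 0.60 SE on the log2 scale, limma adjusted p = 0.00172). The difference of 1.31 ± 0.54 from DBS was called (adjusted p = 0.043) but did not hold under 13 of the 23 other settings that could test it. It was lost without tumour 2, 4, 5 or 6, without any GNPC sample, and without DBS 1, 3 or 4. Without tumour 2 it was 0.91 (adjusted p = 0.0706), and over all leave-one-out fits its adjusted p ran from 0.00451 to 0.115. GNPC were 16.3-fold above DBS (adjusted p = 0.000182), a log2 difference of 4.02 that was 5.35 with a pseudocount of 1 and 2.85 with 64. All these values are of 1 probe set. The other one of Gabrd was dim in all groups and, in a fit with no filter, was not called in any comparison.

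Gabrb2 encodes beta2, which in the adult cerebellum joins alpha6 but is used widely elsewhere. Its tumour values ran from 152.9 (tumour 3) through a median of 331 to 1010.5 (tumour 2). The GNPC samples had 3416, 2233.8 and 2502.6, and the DBS samples 2077.5, 2403.4, 1736.7 and 2084.2. The 2 normal tissues overlapped and each lay above every tumour. Against GNPC the tumours were 7.18-fold lower (-2.84 ± 0.39 SE, limma adjusted p = 4.17e-05) and 5.55-fold below DBS (-2.47 ± 0.36, adjusted p = 1.96e-05). The difference between GNPC and DBS, 0.37 ± 0.42, did not pass (adjusted p = 0.501). Listed with Gabra6 and Gabrd as a subunit of mature granule cells, Gabrb2 thus departed from that list in these samples, with no called difference between GNPC and embryonic brainstem.

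Gabra2 encodes alpha2, prominent in the embryo and in immature neurons. The tumours had a lowest value of 12.5 (tumour 3), a median of 118 and a highest of 240.5 (tumour 5). GNPC had 512.2, 571.2 and 843, and DBS had 1079.5, 1410, 1059.6 and 1209.5. No 2 groups overlapped on this probe set, the brightest of the gene. On 1 other probe set past the filter, GNPC (572 to 701) and DBS (569.3 to 1125.2) overlapped, with a log2 difference of -0.294. Tumour levels were 5.50-fold below GNPC (-2.46 ± 0.51 SE on the log2 scale, limma adjusted p = 0.00119) and 10.2-fold below DBS (-3.35 ± 0.47, adjusted p = 1.47e-05). The difference of GNPC from DBS, -0.89 ± 0.56, did not pass (adjusted p = 0.207).

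Gabra3, on the X chromosome, encodes alpha3, another subunit of the developing brain and of brainstem neurons. It was dim in the tumours, from 3.5 (tumour 3) through a median of 39.2 to 55.6 (tumour 2), with none above its array's median. The values were 142.4, 99.8 and 102.7 in GNPC and 497.3, 375.7, 541.8 and 368.3 in DBS. The groups formed 3 separate steps. Since Gabra3 passed the filter on dim values through DBS, a difference from DBS was favoured by that choice. Against GNPC the tumours were 2.68-fold lower (-1.42 ± 0.33 SE, limma adjusted p = 0.00257) and 9.31-fold below DBS (adjusted p = 2.26e-07), and GNPC were 3.47-fold below DBS (adjusted p = 0.001). With a pseudocount of 64 the difference from GNPC was -0.87, short of the minimum, and with 1 it was -2.04. That from DBS was -2.38 and -3.98. The other probe set of Gabra3 did not pass the filter. In a fit without it that probe set differed by -0.226 between tumours and GNPC, not called.

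Gabra5 encodes alpha5, which forms receptors outside the synapse and is abundant in the embryonic brain and the adult hippocampus. Tumours 1 to 6 had 13.8, 15.1, 22.6, 3.3, 2.3 and 2.1, none of them above its array's median. GNPC had 234.6, 98.7 and 38.8, a spread in which GNPC 1 alone stood above its array's median. DBS had 2152.7, 2309.8, 1704.8 and 2370.3, above every other sample by a wide margin. Since Gabra5 passed the filter on dim values through DBS, a difference from DBS was favoured by that choice. The tumours were 79-fold below DBS (log2 difference -6.31 ± 0.34 SE, limma adjusted p = 6.73e-10), and 4.40-fold below GNPC (-2.14 ± 0.37, adjusted p = 0.000275). Both sizes depend on the pseudocount, since the tumours were at background: with 1 and 64 in its place the differences were -8.06 and -4.89 from DBS, and -3.63 and -1.22 from GNPC. GNPC were 17.95-fold below DBS (adjusted p = 1.96e-06).

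Gabra4 encodes alpha4, which pairs with delta in the thalamus and dentate gyrus. Its difference between tumours and GNPC was the smallest among the 8 members. The tumours ran from 247.5 (tumour 3) through a median of 478.5 to 644.3 (tumour 4), GNPC were at 1035.4, 1087.2 and 1102.4, and DBS were at 1331.8, 1358, 1242.1 and 1188.3. Against GNPC the tumours were 2.38-fold lower (-1.25 ± 0.24 SE, limma adjusted p = 0.000674) and 2.82-fold below DBS (adjusted p = 2.51e-05). GNPC and DBS did not overlap, but their difference of -0.25 ± 0.26 did not pass (adjusted p = 0.469). The pooled spread behind this SE includes the tumours, with a log2 SD of 0.535 against 0.047 in GNPC and 0.088 in DBS.

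Gabrb1 encodes beta1, a less common beta subunit that glia use as well as neurons. Tumour values were 177.8 at the lowest (tumour 1), 370.2 at the median and 862.6 at the highest (tumour 2). GNPC had 1800, 1782.7 and 1473.2, and DBS had 4242.2, 3918.6, 4326.6 and 3952.5. The 3 groups were separate. Tumour levels were 4.41-fold below GNPC (-2.14 ± 0.33 SE, limma adjusted p = 0.000103) and 10.7-fold below DBS (adjusted p = 1.04e-07), and GNPC were 2.43-fold below DBS (adjusted p = 0.00873).

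**Figure D2:**
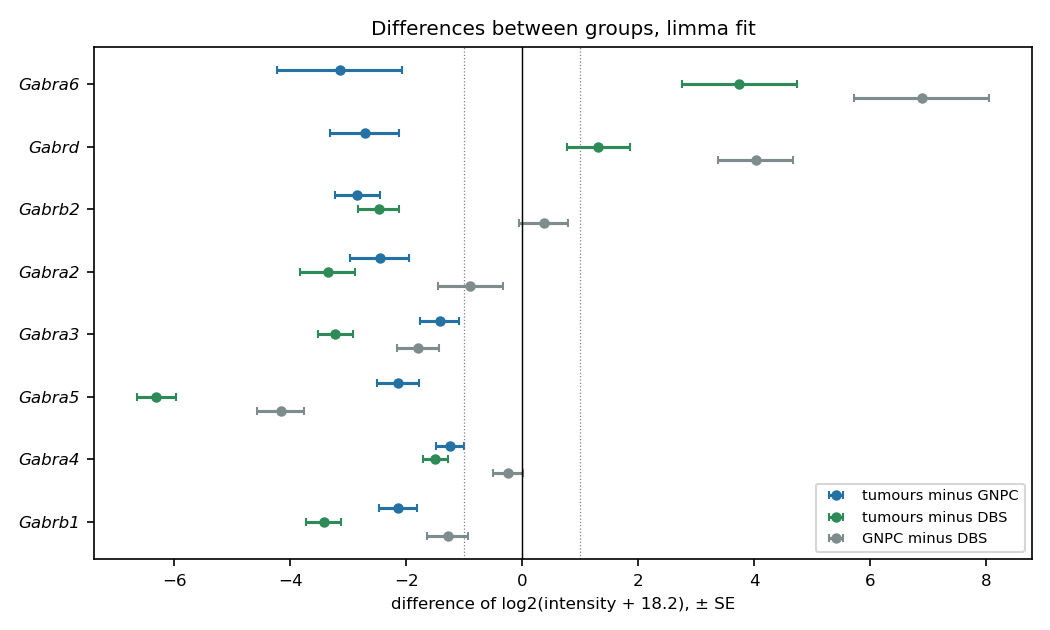
Difference between groups on the scale of log2(intensity + 18.2) for each subunit gene, with the SE of the limma fit as bars, and dotted lines at the 2-fold minimum. All 8 differences of tumours from GNPC (blue) lie left of 0, while those from DBS (green) lie right of 0 for Gabra6 and Gabrd only; grey shows GNPC minus DBS.

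The subunits of mature granule cells and of the embryo were set side by side. Of Gabra6, Gabrd and Gabrb2, 3 were lower in tumours than in GNPC (median log2 difference -2.84, against -0.03 over all genes), and 2 were higher (Gabrd only under some settings) and 1 lower in tumours than in DBS (1.31, against 0.00). Of Gabra2, Gabra3 and Gabra5, 3 were lower in tumours than in GNPC (-2.14) and 3 lower than in DBS (-3.35). All 8 members passed the filter on dim values, but Gabra5, Gabrd and Gabra3 exceeded their arrays' medians in only 5 of 13 samples each. Gabra5 and Gabra3 passed it through DBS (4 of 4 samples, with 1 of GNPC and 0 tumours). Gabrd passed it through GNPC (3 of 3 samples, with 2 tumours and 0 of DBS). Their differences from those groups, and their parts in these counts, were favoured by that choice. When each gene's log2 value was centred on its mean over 13 samples and averaged over a list, the mature subunits stood at 2.26 to 2.73 in GNPC, -2.28 to 1.71 in tumours and -1.51 to -0.97 in DBS. The embryonic subunits stood at -0.03 to 0.59 in GNPC, -2.62 to -1.31 in tumours and 2.45 to 2.56 in DBS. Every tumour was thus below every normal sample for the embryonic subunits, while for the mature ones the tumours ran from below DBS to near GNPC.

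**Figure D3:**
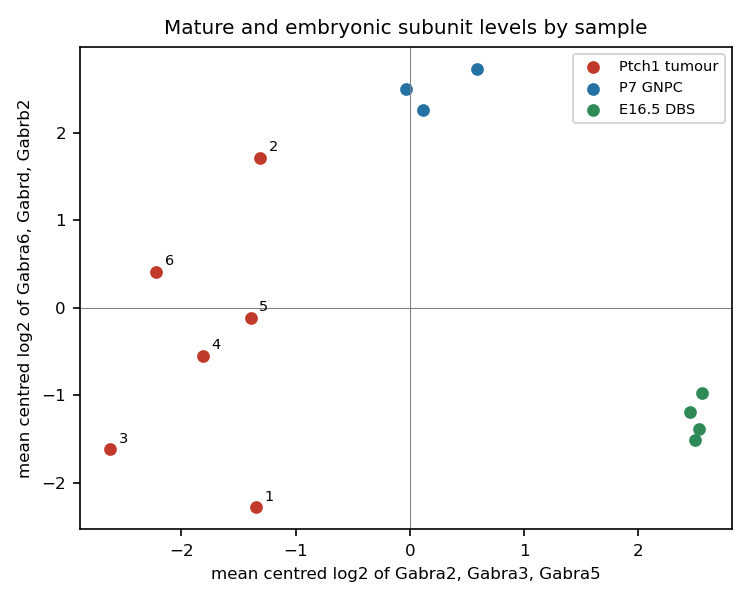
Mean centred log2 value of Gabra2, Gabra3 and Gabra5 (horizontal) and of Gabra6, Gabrd and Gabrb2 (vertical) in each sample, tumours numbered. The 6 tumours share the left side and spread vertically from -2.28 (tumour 1) to 1.71 (tumour 2), GNPC lie at the top and DBS at the lower right.

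The tumours differed from each other more in these subunits than in most genes. The log2 range over the 6 tumours was 7.54 for Gabra6, a range that 2 of 12270 genes exceeded, 3.81 for Gabrd, 3.08 for Gabra2, 2.59 for Gabrb2 and 2.17 for Gabrb1, against a median of 0.70 over all genes. It was 1.77 for Gabra3, 1.32 for Gabra4 and 1.01 for Gabra5. Tumour 2 was the highest tumour for 5 members (Gabra6, Gabrd, Gabrb2, Gabra3 and Gabrb1), as it was for 21.6% of all genes. Tumour 3 was the lowest for 5 (Gabrd, Gabrb2, Gabra2, Gabra3 and Gabra4), as it was for 21% of all genes. As a share of the GNPC mean, tumour 2 had 83.8% of Gabra6, 59.2% of Gabrd, 37.2% of Gabrb2, 51.2% of Gabrb1, 48.4% of Gabra3, 42.2% of Gabra4, 23.7% of Gabra2 and 12.2% of Gabra5. In tumour 1 these shares were, in the same order of genes, 0.123%, 5.78%, 11.1%, 10.6%, 26.4%, 29.2%, 36.1% and 11.1%.

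Some genes of other cerebellar cells shared the order of Gabra6 across the tumours. From the highest the order was tumour 2, 6, 5, 4, 3 and 1, and 41 of 12270 genes, Gabra6 included, had exactly this order (0.334%). Among them were 6 of 9 tested Purkinje cell markers (Calb1, Pcp2, Slc1a6, Car8, Rgs8 and Ppp1r17), Cbln3 and Chn2 of the 17 tested genes of mature granule neurons, the chloride exporter Slc12a5, Gad2 (1 of 8 interneuron markers) and Mobp (1 of 9 oligodendrocyte markers). None of 11 astrocyte, 8 microglia, 6 endothelial, 9 brainstem and 10 precursor markers had it, and the count was made after the order was seen. A list without the exact order can still move partly with Gabra6. The summed astrocyte and Bergmann glia markers were highest in tumour 2 (39113), next in tumour 6 (29027) and lowest in tumour 1 (18803). Tumour 3 (28634) stood above tumours 5 (25034) and 4 (20291) in that sum. Purkinje cells are the output neurons of the cerebellar cortex and do not use Gabra6. Cbln3, a secreted protein of granule neurons, stood in tumour 2 at 243% of the GNPC mean and in tumour 1 at 5.002%. Calb1, a calcium buffer of Purkinje cells, stood at 26.3% and 0.224%, and Pcp2, another Purkinje marker, at 28.3% and 0.170%. Over the whole lists, tumour 2 had 12.2% (Slc1a6) to 72.6% (Kitl) of the GNPC level of the 9 Purkinje markers, with a median of 33.6%, and 16.1% (Unc5c) to 243% (Cbln3) of that of the 17 granule neuron genes, with a median of 88.4%. In tumour 1 the medians were 2.66% and 26.5%. The summed intensity of the 9 Purkinje markers was 2012 to 16485 in tumours, 46765 to 56130 in GNPC and 13362 to 14817 in DBS. The part that other cerebellar cells had in the subunit values was not tested.

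**Figure D4:**
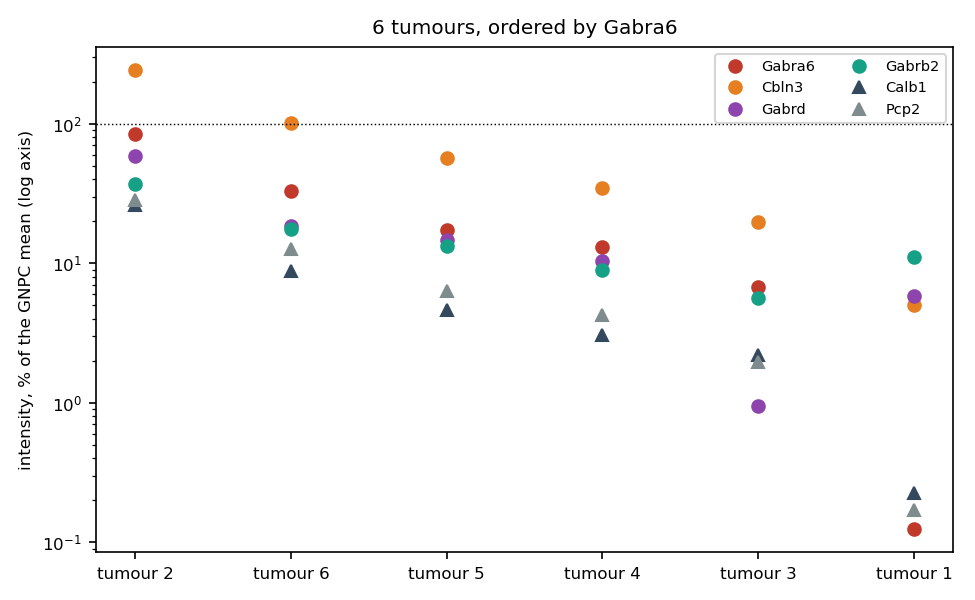
Intensity in each tumour as a percent of the GNPC mean (log axis, dotted line at 100), tumours placed in the order of Gabra6, for Gabra6, Cbln3, Gabrd and Gabrb2 (circles) and the Purkinje markers Calb1 and Pcp2 (triangles). Gabra6 goes from 83.8% in tumour 2 to 0.123% in tumour 1, and Calb1 and Pcp2 follow the same order at lower shares except in tumour 1.

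Other markers also differed between the groups. Against GNPC, the tumours were lower for 7 of 9 Purkinje, 6 of 8 interneuron, 8 of 11 astrocyte and Bergmann glia and 6 of 9 oligodendrocyte and 3 of 6 endothelial markers, with no marker of these lists higher, and higher for 6 of 8 microglia and macrophage markers. Over all genes 14.2% were called lower and 6.57% higher in tumours than in GNPC. The summed level of the 10 precursor genes was 72735 to 78334 in tumours, 42773 to 51679 in GNPC and 16525 to 21296 in DBS, with 4 of 10 called higher in tumours than in GNPC and 6 not passing (Zic1, Zic2 and Pax6 had differences of -0.03, -0.08 and -0.64). The sum was highest in the tumours, but not every gene in it was higher there, so it does not measure how many precursors a sample held. All 9 tested markers of brainstem neurons were called lower in tumours and in GNPC than in DBS, against 20.9% and 9.67% of all genes. Hoxa5, Hoxb5, Hoxb3, Hoxc4 and Prph exceeded their arrays' medians in DBS alone, in 4 of 4 samples. Isl1 did so in DBS and 1 tumour. These genes passed the filter on dim values through DBS, so their parts in the counts were favoured by that choice. Isl1 was 695.7 in tumour 5, above every DBS sample (209.7 to 423.8), and at most 14.1 in the other tumours. The part of the listed cell types in the subunit differences was not tested.

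For the 5 members with more than 1 probe set past the filter, these gave like answers. Gabrd, Gabra3 and Gabra5 each rest on 1 probe set. Of the 23, 17 passed the filter, and all 17 were called between tumours and GNPC, each lower. Of the 21628 probe sets fitted, 12.6% were called lower and 18.5% in either direction. Between tumours and DBS all 17 were called, 3 higher (both of Gabra6 and 1 of Gabrd) and 14 lower, against 34.6% of probe sets. Between GNPC and DBS 8 were called, 3 higher and 5 lower, against 17.2%. The 4 probe sets of Gabrb2 past the filter differed between tumours and GNPC by -2.84, -2.70, -1.85 and -1.72, the 3 of Gabra2 by -2.46, -2.54 and -2.21, and the 3 of Gabrb1 by -2.14, -1.92 and -1.68. The 6 probe sets that did not pass were dim in all groups, with no group mean above 78.3. In a fit with no filter none of them was called between tumours and GNPC. The other probe set of Gabrd differed there by -0.025 and that of Gabra3 by -0.226. Between tumours and DBS these differed by -0.122, not called, and by -1.368, called lower.

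Many subunit genes lie side by side, which the choice of members did not use. In the RefSeq gene table Gabra6 and Gabrb2 are next to each other on chromosome 11, and Gabra4 and Gabrb1 on chromosome 5, where Gabrg1 is next to Gabra2. Gabrg3 is next to Gabra5 on chromosome 7. The neighbours on chromosome 11 had unlike patterns: GNPC exceeded DBS by 6.89 for Gabra6 and by 0.37 for Gabrb2 on the log2 scale. For Gabra4 and Gabrb1 the differences of tumours from DBS were -1.495 and -3.42, although the nearest listed starts of these genes are 387 bases apart on opposite strands. Gabrg1, the gamma1 subunit, stood at 141 ± 82 (SD, n = 6) in tumours, 620 ± 188 (SD, n = 3) in GNPC and 1737 ± 111 (SD, n = 4) in DBS. The tumours were 4.25-fold below GNPC and 12-fold below DBS (limma adjusted p = 6.39e-05 and 2.68e-08), beside 5.50-fold and 10.2-fold for its neighbour Gabra2. Gabrg3, the gamma3 subunit, was near background in tumours and GNPC (7.65 ± 8.77 and 10.1 ± 7.25) and at 185 ± 42.5 in DBS, where alone it exceeded the array medians, in 4 of 4 samples. It passed the filter through DBS only, so a difference from DBS was to be found by that choice, and no fold is given against background. Its neighbour Gabra5 was also highest in DBS.

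The genes most like each member over the 13 arrays were ranked by Pearson correlation of log2 values among 12260 candidates outside the GABA-A family. Since samples of a group share its level, such a value mostly reflects the group means, and it is a description. Gabra6 was most like Cbln3 (0.972), Pcp2 (0.952) and Pvalb (0.918). Gabrd was most like Ppp1r17 (0.964), Pkib (0.961) and Pcp2 (0.939), and Gabrb2 most like Reps2 (0.991), Unc13c (0.988) and Pcp4 (0.985). For Gabra2 the leading genes were Nav3 (0.984), Snx30 (0.983) and Unc5d (0.982), for Gabra3 Clstn1 (0.988), Gorasp1 (0.988) and Cgref1 (0.987), and for Gabra5 Fgf18 (0.994), 5033430I15Rik (0.992) and Ocrl (0.992). Gabra4 was led by Ankrd34b (0.98), Actl6b (0.979) and Cntnap4 (0.961), and Gabrb1 by Slc12a5 (0.988), Rab5a (0.988) and Rcan2 (0.987). Over the 6 tumours alone, among 771 genes with a log2 range of at least 2, Gabra6 was most like Nrip3 (0.996), Gja1 (0.990), Calb1 (0.987), Snhg11 (0.986) and Pcp2 (0.986).

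Most tested genes that make, store and clear GABA were lower in the tumours than in either normal tissue. Of 7 tested, 6 were lower in tumours than in GNPC and none higher (median log2 difference -2.97), and 6 lower than in DBS (-2.59). Over all genes 14.2% and 20.9% were called lower. Gad1, Gad2 and Slc32a1 are also among the interneuron markers counted above, so these counts are not separate. The part that interneurons in GNPC had in these differences was not tested. Gad1 and Gad2, the enzymes that make GABA, were 14.4-fold and 13.9-fold below GNPC (limma adjusted p = 0.000122 and 2.85e-05), and Slc32a1, which loads it into vesicles, was 22.9-fold below (adjusted p = 1.99e-05). Abat, which breaks it down, fell from 3542 ± 175 (SD, n = 3) in GNPC to 580 ± 183 (SD, n = 6) in tumours. Between GNPC and DBS 1 of the 7 was called: Slc6a13, a GABA transporter of the meninges, 2.18-fold higher in GNPC (adjusted p = 0.0163).

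Whether GABA excites or inhibits a neuron depends on chloride, which Slc12a2 brings in and Slc12a5 takes out. Of 6 tested chloride transporters, Slc12a5 alone was called in either tumour comparison. Over all genes 20.8% were called against GNPC and 36.3% against DBS, so 1 of 6 is not above the background. It was 99.7, 2236.6, 245.2, 283.6, 403.3 and 825.8 in tumours 1 to 6, 8363.4, 6241.9 and 4762.6 in GNPC, and 14488.8, 19695.1, 16647.5 and 15577.1 in DBS, without overlap of any 2 groups. The tumours were 14.2-fold below GNPC (limma adjusted p = 0.000187) and 37.3-fold below DBS (adjusted p = 1.26e-06). Slc12a2 was 3293 ± 328 (SD, n = 6) in tumours and 3919 ± 393 (SD, n = 3) in GNPC, a log2 difference of -0.25 that was not called.

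Of 17 tested genes for the inhibitory synapse scaffold and receptor trafficking, 3 were lower in tumours than in GNPC and none higher (median -0.49), and 5 were lower and 1 higher than in DBS (-0.48). Over all genes 14.2% and 20.9% were called lower, so the first of these counts is near the background. The 3 were Iqsec3, a protein of inhibitory synapses (3.77-fold), Nsf, a trafficking ATPase (2.59-fold), and Nlgn2, the adhesion protein of inhibitory synapses, which was 2.005-fold lower, just past the 2-fold minimum. Gphn, the gephyrin scaffold, had log2 differences of -0.58 and -0.87 from GNPC and DBS and was not called. Gabbr1, a subunit of the GABA-B receptor, which signals through G proteins, was 3.39-fold below GNPC and 4.34-fold below DBS (limma adjusted p = 2.82e-06 and 2.16e-08).

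The other genes of mature granule neurons were mixed. Of 17 tested, 8 were lower in tumours than in GNPC and none higher (median -1.09), against 14.2% of all genes lower. In tumours 7 were higher and 4 lower than in DBS (0.21), against 15.4% and 20.9% of all genes, so the count of 4 is near the background. In GNPC 12 were higher and none lower than in DBS (1.29), against 8.73% and 9.67%. The netrin receptor Unc5c was 8.995-fold, the potassium channel Kcnd2 6.57-fold, the transcription factor Neurod2 6.49-fold and Chn2 5.80-fold below GNPC. Cbln3 stood at 1129 ± 1295 (SD, n = 6) in tumours and 1472 ± 157 (SD, n = 3) in GNPC, 2.31-fold apart on the log2 scale without a call (limma adjusted p = 0.213), and was 7.99-fold above DBS in the tumours (adjusted p = 0.0016), so the gene most like Gabra6 did not pass the comparison with GNPC that Gabra6 passed; the difference between these 2 genes was not tested. Fat2, a cadherin of granule cells, and the adhesion protein Cntn2 kept the order of Gabra6 over the groups, with log2 differences of -2.29 and -1.08 from GNPC and 1.84 and 1.73 from DBS, each called. The other genes called lower than in GNPC did not keep it. Unc5c, Kcnd2 and Neurod2 were also called lower in tumours than in DBS (-1.88, -3.41 and -1.19). Cbln1, Grm4 and Chn2 were not called against DBS (-0.46, -0.44 and -0.73).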

How the data were processed

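The deposited values are linear intensities of Affymetrix mouse arrays, 1 array per sample. The submitters' processing notes name MAS5, giving neither its role nor its version, and the build and annotation are not given in the sources used here. Per the labels' protocols, total RNA was amplified in 2 cycles. Each array's 2% trimmed mean is 500. Detection calls were not used here.

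Controls aside, the platform annotation gives 34945 of 45037 probe sets a single symbol, 932 several and 9160 none. Gene identifiers matched to the RefSeq table of GRCm38.p6 changed 0 symbols. Probe sets brighter than the array's own median in 3 or more of 13 arrays were kept and genes represented, each by the probe set with the highest mean, 12270 in all. The test was on log2(value + 18.2), where the pseudocount is the 20th percentile of all values, with limma 3.58.1 in R 4.3.3: 1 mean per group over all 13 samples, and eBayes moderation with a trend on intensity (residual df 10, prior df 4.5). The code was tested on simulated data. Groups follow the labels' source names. Replicate numbers are in accession order and pair nothing. The labels name no batch, so any batch that follows the groups cannot be told apart from them.

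The members and lists were chosen with earlier results of these data known. Named were all 8 members, the other subunits past the filter, up to 4 called genes of largest difference from each pathway list, marker lists as counts with up to 3 defining markers, and the genes of highest correlation. Nfib, Slc12a2, Gphn, Glrb, Zic1, Zic2, Pax6, Kitl and the genes sharing the tumour order were named after their values were seen. So were Mog, Sox10, Isl1, Prph, Hoxb5, Hoxb3, Hoxc4, Cbln1 and Grm4. Promoters are from RefSeq and were found for 7 of 8 members. A Ctnnb1 tumour group was not analysed here.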

Additional observations from a re-analysis of the deposited data

How the results depend on the processing

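The members' differences were recomputed under pseudocounts of 1 and 64, other filters, one median for all arrays, quantile normalization, means over probe sets, no probe sets of the types that may cross-hybridise, fits of only the 2 groups, no intensity trend, no minimum difference, and without each sample. Of 567 member values, none reversed and 18 lost their call: Gabrd between tumours and DBS in 13, Gabra6 between tumours and GNPC in 4, and Gabra3 between tumours and GNPC in 1 (pseudocount 64). Leaving out each sample gave 7 to 8 called members of tumours against GNPC, 7 to 8 against DBS, and 5 of GNPC against DBS. With probe sets required above the median in at least 6 of 13 arrays, 5, 5 and 2 members were called, because Gabra3, Gabra5 and Gabrd were no longer tested. Giving all arrays one median shifted the difference of the median gene from -0.03 to 0.21 between tumours and GNPC and from 0.00 to 0.13 between tumours and DBS, with 8 and 8 members still called. No paired analysis was possible because the labels give no replicate numbers. Signal near background limits Gabra5, Gabra3 and Gabrd in tumours.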

Other observations

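Glycine receptors are the other inhibitory chloride channels of the hindbrain. Of 4 tested subunit genes, 2 were lower in tumours than in GNPC (Glra2 and Glra3), 4 lower in tumours than in DBS and 3 lower in GNPC than in DBS (all but Glrb). Over all genes these shares were 14.2%, 20.9% and 9.67%. Glra1 exceeded its array's median in DBS alone (4 of 4 samples), and Glra3 in DBS (4 of 4) and 1 GNPC sample. Both passed the filter on dim values through DBS, so their differences from DBS were favoured by that choice. Glra1 had a difference of -0.30 between tumours and GNPC that was not called (limma adjusted p = 0.503). Glra2, the subunit of the fetal receptor, was 1.8 to 188.5 in the 6 tumours, 1486.9, 1347.9 and 1572.7 in GNPC and 3973.7 to 7463.8 in DBS. It was 16.2-fold below GNPC and 58.2-fold below DBS in the tumours (limma adjusted p = 3.11e-05 and 6.16e-08). Glrb, the beta subunit that binds gephyrin, had a difference of -0.82 from GNPC that was not called.

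The 5 other GABA-A subunit genes on the array with a symbol, Gabre, Gabrp, Gabrq, Gabrr1 and Gabrr2, did not pass the filter, and no group mean of their probe sets was above 54.2.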
